A study of Mus musculus with 12 samples.

Results

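The genes described here code for the extracellular matrix that fibroblasts make. They were taken by symbol from a list of 47 matrix genes, and 45 of them were found among the 15217 genes of the deposited table. No measured value entered that rule, but the list was chosen with earlier results of these data known. Fbln1 and Eln, which code for the elastic fibre proteins fibulin-1 and elastin, were not analysed here. The 45 genes fall into 9 roles: 5 fibrillar collagens, 7 other collagens, 6 basement membrane glycoproteins, 8 elastic fibre proteins, 4 adhesive and matricellular glycoproteins, 3 small leucine-rich proteoglycans, 4 cross-linking oxidases, 3 metalloproteinase inhibitors and 5 enzymes that fold or modify collagen.

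RNA was measured by SLAM-seq in NIH-3T3, an established wild-type line of mouse embryonic fibroblasts. Cells were labelled for 2 h with 4-thiouridine (4sU) at 200 µM or at 800 µM, or were left without it. 4sU is a uridine analogue that enters RNA made during labelling, and iodoacetamide then alters it so that it is read as C. This conversion was done either in tubes on isolated RNA or inside cells fixed with methanol, at a temperature and for a time that also differed between the procedures, per the labels' protocols. The 6 groups, tube and fixed at each of the 3 doses, held 2 libraries each, named A and B. Whether A and B came from different cultures is not stated in the labels. The p-values below therefore measure only the spread between these libraries, which may be technical.

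Fibroblasts secrete collagens as long triple-helical precursors that are hydroxylated and folded in the endoplasmic reticulum, trimmed outside the cell and cross-linked by lysyl oxidases. Fibronectin, fibrillins and laminins form further networks that cells hold through integrins. Latent TGF-beta binding proteins tie a stored growth factor into this matrix, and metalloproteinases and their inhibitors set how fast it is taken down.

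Many matrix transcripts are long, rich in G and C and poor in the uridines that 4sU replaces. Transcripts of the 45 genes had a median deposited length of 5190 bases against 3385 over all genes tested. The median share of U was 22.5% against 24.3%, and the median GC content of the coding sequence 56.4% against 52.8%. To show what the conversion has to work with, 60 bases from the middle of the longest coding exon are printed for 2 genes with the lowest and 2 with the highest share of U in the coding sequence among those with a tested labelling ratio, with T, the base read for U, in capitals (GENCODE M21 transcripts on GRCm38, 5′ to 3′).
Loxl1: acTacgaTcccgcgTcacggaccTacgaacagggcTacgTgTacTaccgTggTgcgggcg
Col4a2: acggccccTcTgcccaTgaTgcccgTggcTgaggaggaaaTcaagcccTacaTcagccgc
Dcn: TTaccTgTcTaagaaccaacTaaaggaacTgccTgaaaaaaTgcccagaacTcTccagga
Timp1: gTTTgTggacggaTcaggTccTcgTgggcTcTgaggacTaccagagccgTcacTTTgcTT
The Loxl1 stretch, from a lysyl oxidase, lies in exon 1 on the minus strand at chr9:58312256-58312315 and holds 10 T. The Col4a2 stretch, from a chain of type IV collagen, lies in exon 47 on the plus strand at chr8:11446073-11446132 and holds 9. The Dcn stretch, from the proteoglycan decorin, lies in exon 4 on the plus strand at chr10:97506570-97506629 and holds 11, and the Timp1 stretch, from a metalloproteinase inhibitor, lies in exon 6 on the plus strand at chrX:20874520-20874579 and holds 17. Over the whole coding sequence the share of U was 16.1% in Loxl1 and Col4a2 and 24.2% in Dcn and Timp1.

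Library totals ranged from 3629634 to 7762635 counts, and the 45 matrix genes took 1.76% to 1.96% of the counts in tubes and 0.85% to 1.2% in fixed cells. All 45 passed the filter on low counts, which left 11081 genes, and 6 of them had a mean count under 50. Of 9 fibroblast markers, 8 were in the table and each had a median above 10 CPM (counts scaled by the TMM-adjusted library size). None of the markers of other cell types that were in the table exceeded 10 CPM in the median, and their sum lay between 7.53 and 17.1 CPM in each library. The fixed 800 µM library A stood apart: its TMM scaling factor was 0.835, against 0.926 to 1.15 in the others, and its median labelling ratio over all genes was 29.6%, against 40.1% in library B of that group.

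Per kilobase of the deposited length, the highest levels without 4sU were those of Sparc, Bgn, Timp1, Timp2 and Col1a1. Sparc, a collagen-binding glycoprotein, had 765 and 791 CPM per kilobase in tubes and 536 and 547 in fixed cells, and its mean of 660 was above that of 99.3% of the genes in the table. Bgn, the proteoglycan biglycan, had a mean of 545, and the metalloproteinase inhibitors Timp1 and Timp2 had means of 462 and 373. Col1a1, the main chain of type I collagen, had a mean of 247.

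The lowest levels were those of Postn, Lum, Nid2, Loxl2 and Col12a1, with means of 1.33, 0.90, 0.36, 0.25 and 0.21 CPM per kilobase. These code for periostin, the proteoglycan lumican, nidogen-2, a lysyl oxidase and a collagen that sits on fibrils. These 5 genes had mean counts of 7.33 to 46.3 per library. The place of Postn depends on the length used: the deposited value is 5223 bases, against 2670 in its GENCODE M21 transcript with the longest coding sequence.

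**Figure D1:**
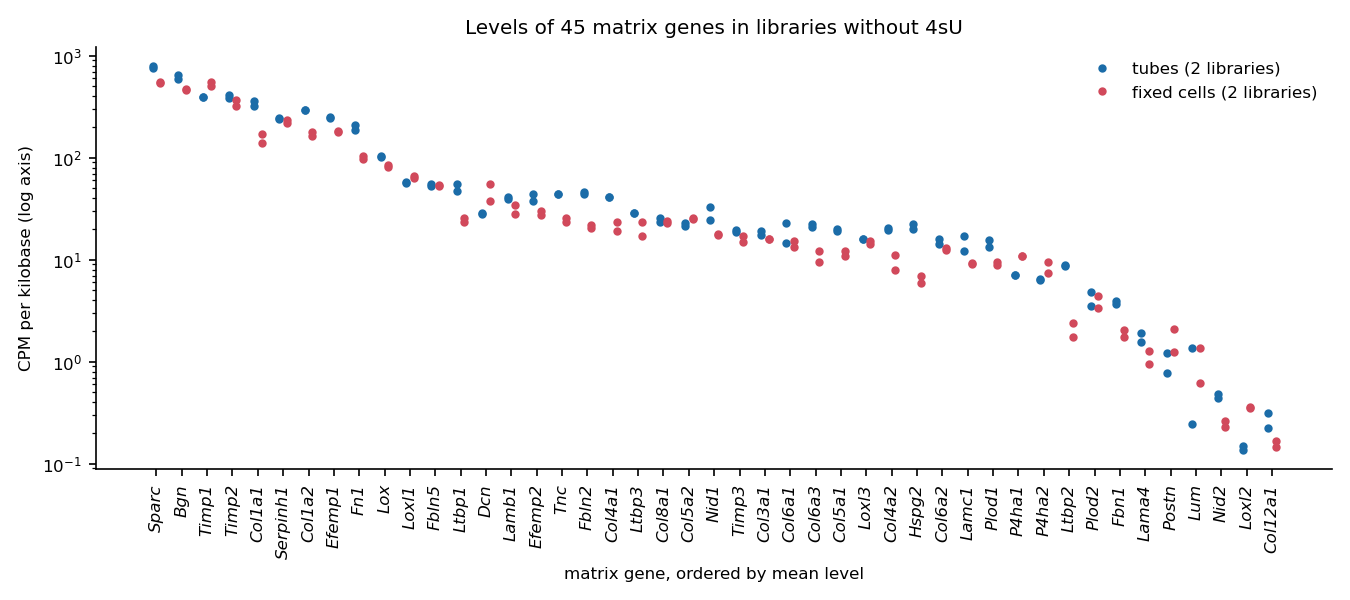
CPM per kilobase (log axis) of the 45 matrix genes in the libraries without 4sU, with 1 point for each of 2 tube libraries (blue) and 2 fixed-cell libraries (red). The levels run from a mean of 660 for Sparc to 0.21 for Col12a1, and for 32 genes both red points lie below both blue ones.

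The first comparison asked how the matrix genes differed between fixed cells and tubes when no 4sU was given. More of the matrix genes were lower than higher in fixed cells: 22 of the 45 passed the edgeR quasi-likelihood test (Benjamini-Hochberg, BH, adjusted p under 0.05) as lower and 3 as higher. Among all 11081 genes, 15.2% were lower and 16.3% higher. The median log2 fold of the matrix genes was −0.47, against −0.01 over all genes. Both fixed libraries lay below both tube libraries for 32 of the 45 genes and above them for 8, where 34.0% and 33.7% of all genes were separated in these directions. When libraries were scaled only on the 1736 genes of lowest labelling ratio, the median over all genes shifted by −0.30 in this comparison. Then 32 matrix genes were lower and 0 higher, and over all genes 855 higher and 3351 lower replaced 1801 and 1684. Of the 8 fibroblast markers, Vim and S100a4 were higher in fixed cells, at 0.73 (SE 0.14) and 0.62 (SE 0.14), Thy1 and Ddr2 were lower, at −0.64 (SE 0.14) and −0.56 (SE 0.13), and 4 did not pass. Their summed level was 10762 and 11331 CPM in tubes and 16799 and 15678 CPM in fixed cells; without Vim and S100a4 it was 1420 and 1398 CPM in tubes and 1112 and 1101 CPM in fixed cells. Their part in the result was not tested.

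Type I collagen, the most abundant fibrillar collagen, was lower in both of its chains. Col1a1 (chr11:94936224-94953042, plus strand, GRCm38) had 2138 and 1894 CPM in tubes and 1019 and 820 CPM in fixed cells. Its log2 fold was −1.13 (SE 0.24, n = 2 libraries per group; edgeR BH-adjusted p = 0.0013). Col1a2 had 1582 and 1568 CPM in tubes and 952 and 880 CPM in fixed cells, a log2 fold of −0.78 (SE 0.16; edgeR BH-adjusted p = 0.0010). The groups did not overlap for either chain. Col5a1, a chain of the type V collagen that starts fibrils, was lower by a log2 fold of −0.77 (SE 0.21), and its partner chain Col5a2 lay at 0.20 (SE 0.14), not past the threshold. Col3a1, type III collagen, lay at −0.20 (SE 0.15), also not past it.

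Among the other collagens, the network-forming chains of basement membranes were lower. Col4a1 had 274 and 276 CPM in tubes and 156 and 128 CPM in fixed cells, a log2 fold of −0.95 (SE 0.16; edgeR BH-adjusted p = 0.00025). Col4a2 had 131 and 127 CPM in tubes and 71.9 and 51.3 CPM in fixed cells, a log2 fold of −1.07 (SE 0.17; edgeR BH-adjusted p = 0.00018). The tube libraries were nearly equal and well above the fixed ones for both chains. These genes lie head to head on chromosome 8, with annotated ends that overlap between 11312805 and 11312826, so that reads in that stretch could be shared if the counting ignored strand. Col6a3, the longest chain of the microfibrillar type VI collagen, was lower, at −1.0 (SE 0.14), and its shorter partners Col6a1 and Col6a2 lay at −0.38 (SE 0.24) and −0.25 (SE 0.15) without passing.

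Of the basement membrane glycoproteins, 4 of 6 were lower and 0 higher. Hspg2 (chr4:137468769-137570630, plus strand) codes for perlecan, a large heparan sulfate proteoglycan, and had the second-largest difference of all the matrix genes. It had 287 and 322 CPM in tubes and 97.7 and 83.8 CPM in fixed cells, so the fixed libraries stood far below the tube libraries. The log2 fold was −1.75 (SE 0.25; edgeR BH-adjusted p = 6.2e-05). Nid1, which links laminin to type IV collagen, was at −0.70 (SE 0.15), and the laminin chains Lamc1 and Lamb1 were at −0.66 (SE 0.19) and −0.38 (SE 0.13).

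The elastic fibre group had the highest share of lower genes, 7 of 8. Ltbp2 (chr12:84783212-84876532, minus strand), a fibrillin-binding protein of the latent TGF-beta binding protein family, had the largest difference. Its level was 58.4 and 59.9 CPM in tubes and 16.3 and 11.8 CPM in fixed cells, a log2 fold of −2.08 (SE 0.25; edgeR BH-adjusted p = 1.4e-05). Fbln2, the calcium-binding glycoprotein fibulin-2, had 221 and 211 CPM in tubes and 98.1 and 105 CPM in fixed cells, a log2 fold of −1.09 (SE 0.12; edgeR BH-adjusted p = 7.5e-06). For both genes the libraries of each procedure were close together and the groups far apart. Ltbp1, which anchors latent TGF-beta, was at −1.05 (SE 0.21) and Fbn1, the microfibril protein fibrillin-1, at −1.0 (SE 0.17). Efemp2, Ltbp3 and Efemp1, which are fibulin-4, another latent TGF-beta binding protein and fibulin-3, were at −0.51 (SE 0.16), −0.50 (SE 0.19) and −0.47 (SE 0.12). Fbln5, fibulin-5, lay at −0.01 (SE 0.15) and did not pass.

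Of the 4 adhesive and matricellular glycoproteins, 3 were lower. Fn1 (chr1:71585520-71653200, minus strand), fibronectin, to which cells and collagens bind, had 1726 and 1569 CPM in tubes and 866 and 810 CPM in fixed cells, a log2 fold of −0.98 (SE 0.17; edgeR BH-adjusted p = 0.00033). Tnc, the anti-adhesive glycoprotein tenascin-C, had 313 and 312 CPM in tubes and 183 and 166 CPM in fixed cells, a log2 fold of −0.84 (SE 0.13; edgeR BH-adjusted p = 0.00011). Sparc had 1759 and 1818 CPM in tubes and 1233 and 1259 CPM in fixed cells, a log2 fold of −0.52 (SE 0.13; edgeR BH-adjusted p = 0.0039). In all 3 genes the fixed libraries were close together and below the tubes.

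The genes for smaller secreted proteins and for enzymes were split. Among the proteoglycans, Bgn was lower, with 1585 and 1715 CPM in tubes and 1274 and 1235 CPM in fixed cells (log2 fold −0.40, SE 0.12; edgeR BH-adjusted p = 0.020), and Dcn was higher, with 131 and 136 CPM in tubes and 176 and 258 CPM in fixed cells (log2 fold 0.70, SE 0.18; edgeR BH-adjusted p = 0.0066). The fixed libraries differed more from each other for Dcn than for Bgn. None of the 4 lysyl oxidases passed in either direction: Lox lay at −0.30 (SE 0.12), Loxl1 at 0.18 (SE 0.14), Loxl3 at −0.10 (SE 0.15) and the scarce Loxl2 at 1.30 (SE 0.78).

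Timp1 was higher in fixed cells, with 348 and 349 CPM in tubes and 445 and 489 CPM in fixed cells (log2 fold 0.42, SE 0.14; edgeR BH-adjusted p = 0.025). With an offset for length, an alternative chosen after seeing the data, this value turned to −0.15, and the call did not hold when any 1 of the 4 libraries was left out. P4ha1, a subunit of the enzyme that hydroxylates collagen prolines, was higher, with 28.9 and 28.7 CPM in tubes and 44.5 and 43.8 CPM in fixed cells (log2 fold 0.62, SE 0.17; edgeR BH-adjusted p = 0.011), and this call too was lost with any 1 library left out. Plod1, a collagen lysyl hydroxylase, was lower at −0.66 (SE 0.18). Serpinh1, the collagen chaperone HSP47, lay at −0.11 (SE 0.13) and did not pass. With the scaling on low-ratio genes, the values for Dcn, P4ha1 and Timp1 stayed above 0 at 0.40, 0.31 and 0.12, and none of them passed.

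**Figure D2:**
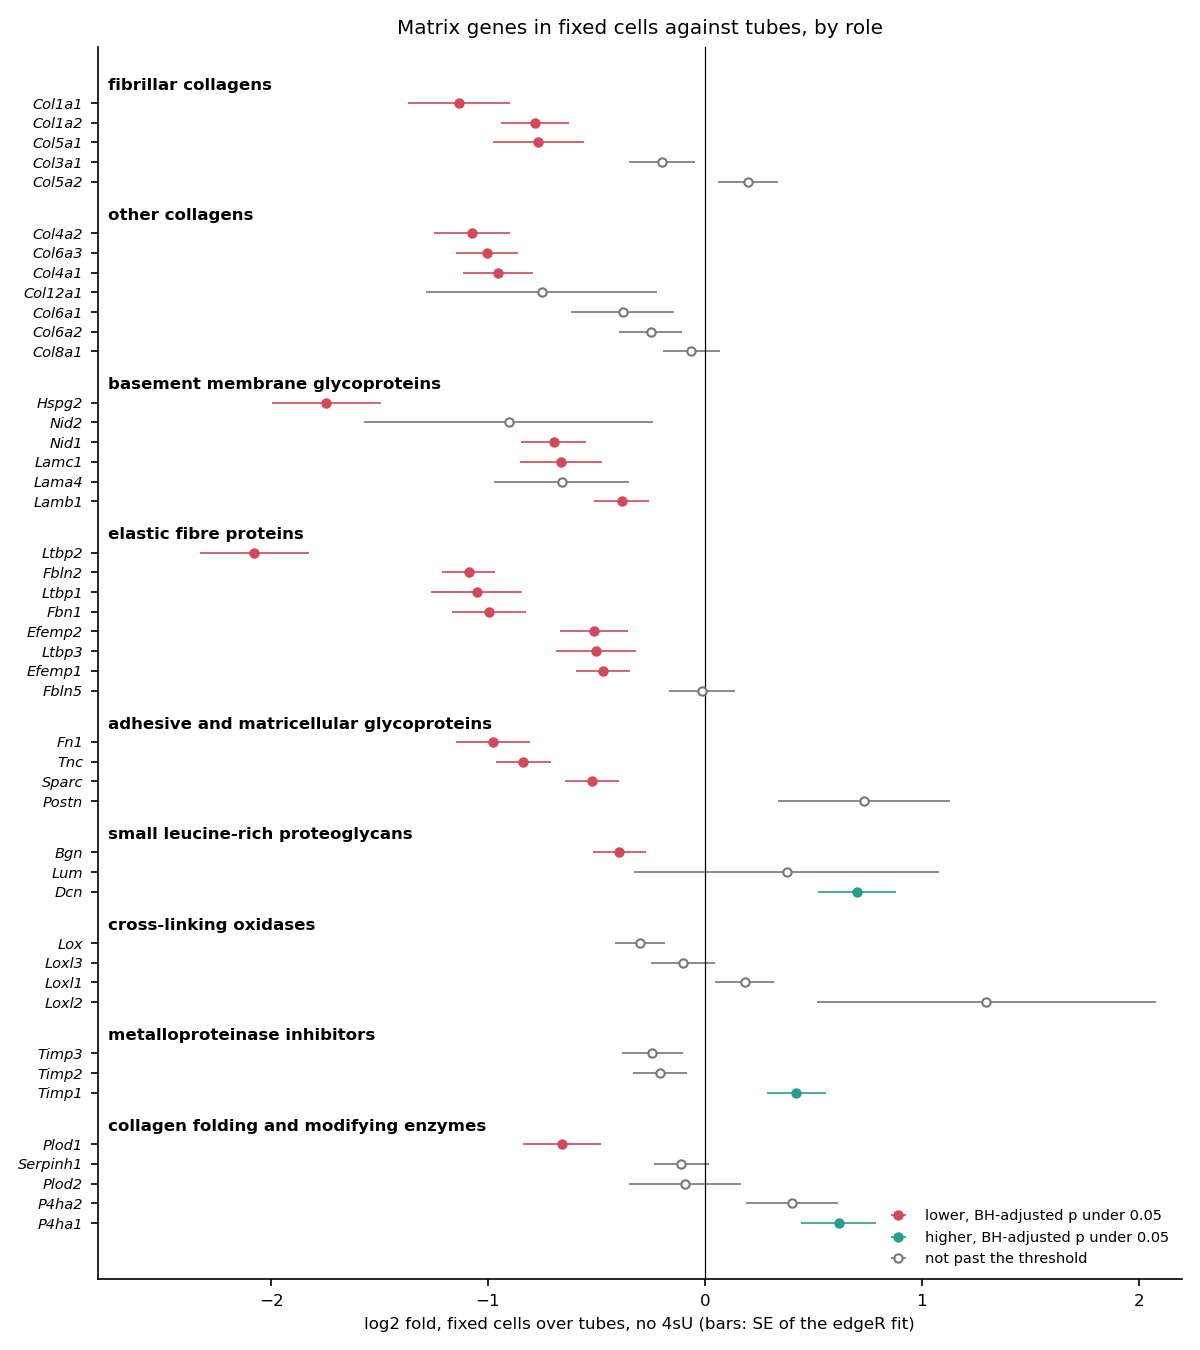
Log2 fold of each of the 45 matrix genes in fixed cells over tubes without 4sU, by role, with 2 libraries per group. Bars are the standard error, taken as the absolute log2 fold over the square root of the edgeR F statistic. Filled points passed a BH-adjusted p of 0.05. Of the 45 points, 22 passed left of 0, down to −2.08 for Ltbp2, and 3 passed right of 0.

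Of the 25 matrix genes that differed between the procedures, 12 passed under each of the 10 alternative settings and omissions that were run: Col1a1, Col1a2, Col4a1, Col4a2, Col6a3, Fbln2, Fn1, Hspg2, Ltbp1, Ltbp2, Sparc and Tnc. Without fixed library B, which removed the most calls, 15 were lower and 0 higher. The same direction was seen in the labelled cells, where the comparison was described without a test: of the 22 lower genes, 18 had both fixed libraries below both tube libraries at 200 µM 4sU and 21 at 800 µM. Over all 1684 genes lower without 4sU, these shares were 88.2% and 92.2%. Of the 3 higher matrix genes, 2 were above without overlap at 200 µM and 1 at 800 µM, beside 87.7% and 90.9% of the 1801 higher genes.

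The size of the difference between the procedures went with the deposited length across the whole table. What this length measures is not stated in the sources used here. For Dcn it is 4692 bases, against 1758 in the GENCODE M21 transcript with the longest coding sequence. Spearman's rho between the log2 fold and the deposited length was −0.42 over the 11081 genes and −0.59 over the 45 matrix genes (genes are not independent replicates, and all folds share the same 4 libraries). Among the longest 1108 genes, from 6755 bases, 42.9% of all genes and 8 of 9 matrix genes were lower. Of the 24 matrix genes longer than 5000 bases, 16 were lower and 0 higher, with a median log2 fold of −0.76; among all genes of that length 33.1% were lower and the median was −0.39. Of the 21 shorter matrix genes, 6 were lower and 3 higher, with a median of −0.24; among all genes up to 5000 bases 9.97% were lower and the median was 0.10. In both length classes the median of the matrix genes was below that of all genes.

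After an offset for the trend with length in each library, an alternative chosen after seeing the data, 16 matrix genes were lower and 3 higher, and 18 of these 19 were among the 25 called before. Col5a1, Lamc1, Lamb1, Fbn1, Nid1, Ltbp3 and Timp1 then missed the threshold, and Col5a2 passed as higher at 0.55 (SE 0.14). Over all genes 11.3% were lower and 12.4% higher with this offset, with a median of −0.01, and the median over the matrix genes moved to −0.28. Hspg2 moved from −1.75 to −1.0, Ltbp2 from −2.08 to −1.72, Col1a1 from −1.13 to −0.84 and Fbln2 from −1.09 to −0.92. Length was not varied on its own in this design, and its part in the result beyond this offset was not tested. The rho with the GC content of the coding sequence was −0.14 over all genes with an annotated coding sequence and −0.36 over the matrix genes.

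**Figure D3:**
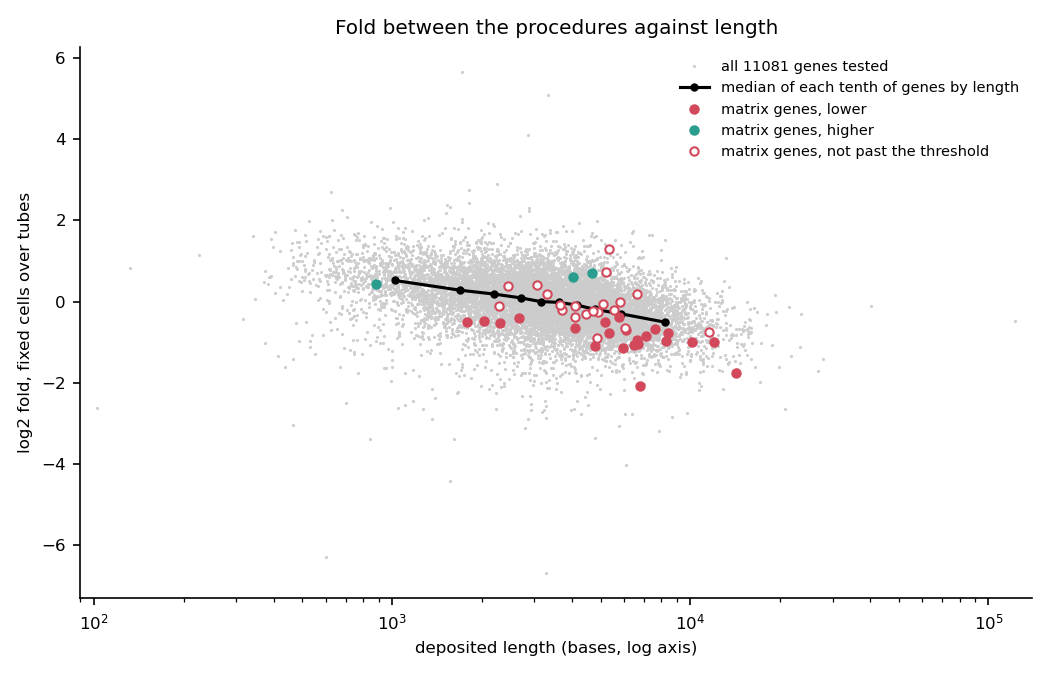
Log2 fold in fixed cells over tubes without 4sU against the deposited length (log axis) for the 11081 genes tested (grey), the median of each of 10 classes of genes by length (black) and the 45 matrix genes (red where lower, green where higher, open where not past the threshold). The black line falls from 0.52 among the shortest genes to −0.50 among the longest.

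Further lists of genes around the matrix had median folds below 0 in fixed cells without 4sU. They hold 9 to 22 tested genes, and no list was tested against all genes. No length offset is given for them, and the part of length in their values was not tested. Among all genes, 15.2% were lower and 16.3% higher, with a median log2 fold of −0.01. Each list had more lower than higher genes and a median below that value, but for the proteases the share of lower genes was close to that of all genes. The medians were −0.34 for integrins and matrix receptors, −0.42 for matrix proteases and −0.11 for collagen folding and secretion. They were −0.21 for the TGF-beta pathway and −0.59 for other collagens. Of 21 integrins and matrix receptors tested, 7 were lower and 1 higher, with Itga6 at −0.79 (SE 0.14), the collagen receptor Ddr1 at −0.72 (SE 0.13) and Itgb7 at −1.0 (SE 0.20). Of 18 matrix proteases, 3 were lower and 1 higher, among them the membrane-bound collagenase Mmp14 at −1.09 (SE 0.16). Of 22 further genes for collagen folding and secretion, 5 were lower and 3 higher. They included Sec13, a coat protein of secretory vesicles, at 1.36 (SE 0.16), the procollagen protease Bmp1 at −1.25 (SE 0.20) and the prolyl isomerase Fkbp10 at −0.77 (SE 0.13). Of 20 genes of the TGF-beta pathway, 4 were lower and 2 higher, with the repressor Ski at −0.97 (SE 0.18) and the decoy receptor Bambi at 0.86 (SE 0.16). Of 9 other collagens, Col27a1 and Col16a1 were lower, at −1.08 (SE 0.23) and −0.59 (SE 0.16).

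The next comparisons asked whether 2 h of 4sU moved the matrix genes, within each procedure. In tubes a few passed as higher and none as lower. At 200 µM, 3 of the 45 rose, beside 2.41% of all genes that rose and 1.4% that fell, and the median of the matrix genes was 0.20 against 0.03 over all genes. At 800 µM, 2 rose, beside 0.911% and 0.966% of all genes, with a median of 0.17 against 0.03. These 2 doses share their control libraries. The low-ratio scaling shifted the all-gene median by −0.17 and −0.15 and gave matrix medians of 0.03 and 0.02. It turned the rises and falls over all genes from 267 and 155 to 85 and 452 at 200 µM and from 101 and 107 to 49 and 285 at 800 µM. Of the 35 matrix genes with a tested ratio, 24 lie below the 25.7% that bounds the genes of this scaling. Matrix medians near 0 are therefore in part built into it and cannot decide whether matrix genes rose.

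Timp1 (chrX:20870166-20874735, plus strand), an inhibitor of matrix metalloproteinases, rose at both doses in tubes. It had 348 and 349 CPM without 4sU, 541 and 635 CPM at 200 µM and 536 and 519 CPM at 800 µM. All 4 treated libraries were above both untreated ones. The log2 changes were 0.75 (SE 0.14; edgeR BH-adjusted p = 0.0097) and 0.60 (SE 0.14; edgeR BH-adjusted p = 0.031). In fixed cells Timp1 had 445 and 489 CPM without 4sU, 599 and 693 CPM at 200 µM and 586 and 716 CPM at 800 µM, again without overlap. The log2 values there were 0.47 (SE 0.14; edgeR BH-adjusted p = 0.13) and 0.48 (SE 0.14; edgeR BH-adjusted p = 0.064), not past the threshold.

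Tnc (chr4:63959785-64047015, minus strand) had 313 and 312 CPM in tubes without 4sU, 408 and 422 CPM at 200 µM and 458 and 427 CPM at 800 µM. It rose at 800 µM, with a log2 change of 0.50 (SE 0.13; edgeR BH-adjusted p = 0.046), and lay at 0.41 (SE 0.13; edgeR BH-adjusted p = 0.072) at 200 µM. In fixed cells it had 183 and 166 CPM without 4sU, 209 in each library at 200 µM, and 200.3 and 244 CPM at 800 µM. The treated libraries were above the untreated ones in each procedure, without passing in fixed cells.

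Loxl3, a lysyl oxidase, and Col6a2 rose at 200 µM in tubes and did not pass at 800 µM. Loxl3 had 65.2 and 65.0 CPM without 4sU, 93.1 and 101 CPM at 200 µM and 83.8 and 69.7 CPM at 800 µM. Its log2 change at 200 µM was 0.58 (SE 0.15; edgeR BH-adjusted p = 0.038). Col6a2 had 70.5 and 77.9 CPM without 4sU, 126 and 96.9 CPM at 200 µM and 85.7 CPM in each library at 800 µM. Its log2 change at 200 µM was 0.58 (SE 0.14; edgeR BH-adjusted p = 0.036). Col1a2 had 1582 and 1568 CPM without 4sU and 1037 and 1237 CPM at 200 µM in tubes, with no overlap. Its log2 value of −0.47 (SE 0.16; edgeR BH-adjusted p = 0.095) did not pass, and it passed as lower with DESeq2, without a filter on low counts and with the low-ratio scaling. In fixed cells Loxl3 and Col6a2 stayed between 58.2 and 72.1 CPM in all 6 libraries. Exons of Loxl3 overlap those of Htra2 on the opposite strand. Of the 5 calls in tubes, none held under all 10 alternatives: Timp1 at 200 µM passed in 7, Col6a2 in 5, Loxl3 and Timp1 at 800 µM in 4, and Tnc in 3. Without any 1 of the 4 libraries compared at 800 µM, 0 matrix genes passed. At 200 µM, Timp1 alone passed without library A at that dose, and 0 passed without any 1 of the other 3.

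**Figure D4:**
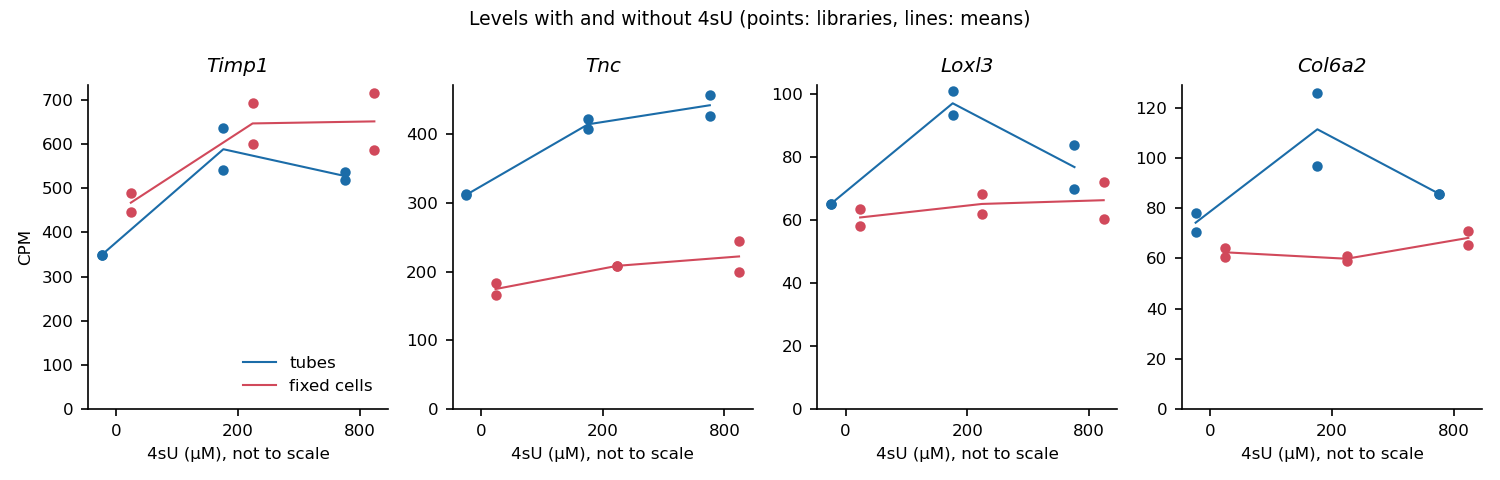
CPM of the 4 matrix genes that rose with 4sU in tubes, by dose in µM (doses evenly spaced, not to scale); points are the 2 libraries of a group and lines join group means, blue for tubes and red for fixed cells. Timp1 is higher with 4sU in both procedures, and Loxl3 and Col6a2 in fixed cells stay between 58.2 and 72.1 CPM.

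In fixed cells no matrix gene passed in the main edgeR fit at either dose. Under other edgeR settings, Nid1 passed as higher at 200 µM without a filter on low counts. At 800 µM, Timp1 passed as higher with RLE factors and without a filter, Tnc as higher with the length offset, and Col3a1 as lower with the low-ratio scaling. At 200 µM the shares over all genes were 0.244% higher and 0.605% lower, and 3 matrix genes (6.67%) had an unadjusted p under 0.05, against 12.6% of all genes (2 passed in DESeq2). At 800 µM the shares were 0.776% and 1.87%, and 6 matrix genes (13.3%) had an unadjusted p under 0.05, against 20.1% of all genes (1 passed in DESeq2). The medians of the matrix genes were 0.12 and 0.07, against 0.00 over all genes at both doses. The low-ratio scaling shifted the all-gene median by −0.11 and −0.18 and turned the rises and falls over all genes from 27 and 67 to 18 and 190 and from 86 and 207 to 41 and 715. Nid1 had 110 and 108 CPM without 4sU and 177 and 144 CPM at 200 µM, a log2 value of 0.56 (SE 0.15; edgeR BH-adjusted p = 0.090), and Ltbp2 lay at 0.64 (SE 0.26) there. At 800 µM, Tnc lay at 0.35 (SE 0.13) and Col3a1 at −0.40 (SE 0.16). With 1 of the 2 libraries at 800 µM left out, the remaining one is assumed to vary like the other groups. Without library A, which stood apart, Tnc (0.54), Ltbp2 (0.98) and Timp1 (0.67) passed as higher. Without library B instead, Col5a1 (−0.56), Hspg2 (−1.10) and Col1a1 (−0.71) passed as lower, in the opposite direction. Of all genes, 2.1% passed without library A and 10.6% without library B. The 2 libraries differed in these genes: Col1a1 had 560 CPM in library A and 1136 in library B, and Hspg2 had 42.3 and 101.

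The difference between the procedures in the effect of 4sU was tested as an interaction. No gene of the 11081 passed in the main edgeR fit at either dose (0%). Among the matrix genes, 5 at 200 µM (11.1%) and 3 at 800 µM (6.67%) had an unadjusted p under 0.05, against 8.99% and 5.93% of all genes, and 0 passed in DESeq2 (11 and 0 over all genes). The smallest p at 200 µM were those of Nid1 (0.72, SE 0.21), Col6a2 (−0.64, SE 0.20) and Efemp2 (0.52, SE 0.22), each fixed cells minus tubes on the log2 scale. At 800 µM they were those of Dcn (−0.71, SE 0.25), Col3a1 (−0.52, SE 0.22) and P4ha1 (−0.53, SE 0.24). Without fixed 800 µM library B, Hspg2 (−1.14), Col1a1 (−0.99) and Col5a1 (−0.90) passed as lower, among 123 genes in the whole table.

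In the pathway around the matrix, the TGF-beta feedback repressor Skil rose in each of the 4 comparisons with 4sU. Its log2 change was 0.81 (SE 0.17) and 1.23 (SE 0.16) at 200 and 800 µM in tubes and 0.80 (SE 0.16) and 1.06 (SE 0.16) in fixed cells. Pmepa1, another inhibitor of TGF-beta signalling, rose in tubes by 0.85 (SE 0.19) and 0.79 (SE 0.19). The aggrecan-cleaving protease Adamts5 fell in all 4 comparisons, by 0.99 and 0.65 in tubes and by 0.95 and 0.84 in fixed cells on the log2 scale. The hyaluronan receptor Cd44 rose at 800 µM by 0.60 (SE 0.12) in tubes and by 0.59 (SE 0.13) in fixed cells. In all, the TGF-beta list had 2, 2, 1 and 1 of 20 genes that rose, with tubes before fixed cells and 200 before 800 µM. The protease list had 1, 1, 0 and 0 of 18 that rose and 1 that fell in each comparison. The receptor list had 1, 1, 0 and 1 of 21 that rose. Over all genes, 2.41%, 0.911%, 0.244% and 0.776% rose and 1.4%, 0.966%, 0.605% and 1.87% fell. Calls on these lists under the alternative settings are not given here. Further risers in tubes were the integrin chain Itgb1 (0.50) and the gelatinase Mmp2 (0.45) at 200 µM and the urokinase Plau (0.76) at 800 µM. No other collagen and no further folding gene passed.

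The stretches just upstream of the starts of Timp1 and Tnc are shown because these were the matrix genes that rose at 800 µM. Each is the 150 bases before the start in RefSeq (GRCm38.p6), with matches to a TATA box (TATAAA), an AP-1 motif (TGANTCA), a GC box (GGGCGG) and a CCAAT box (CCAAT), searched on both strands, in capitals.
Timp1: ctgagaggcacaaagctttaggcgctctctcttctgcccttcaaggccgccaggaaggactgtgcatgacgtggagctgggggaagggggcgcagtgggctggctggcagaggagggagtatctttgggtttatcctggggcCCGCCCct
Tnc: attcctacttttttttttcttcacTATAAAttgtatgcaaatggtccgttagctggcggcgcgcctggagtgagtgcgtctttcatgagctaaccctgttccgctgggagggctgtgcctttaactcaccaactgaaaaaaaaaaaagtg
The Timp1 stretch, at chrX:20870016-20870165 on the plus strand, held a GC box, read on the other strand. The Tnc stretch, at chr4:64047016-64047165 on the minus strand, held TATAAA near the end farther from the start. Another RefSeq start of Tnc, with 150 bases at chr4:64046937-64047086, had no exact match to the 4 motifs there. That stretch held TATATAAG close to the start, which a search for TATAAA does not match. In the 250 bases upstream, TATAAA was found in 12.4% of all 32851 promoters, TGANTCA in 6.75%, GGGCGG in 32.7% and CCAAT in 33.9%. RefSeq gave 38 promoters for 31 of the matrix genes. Of these 38 promoters, 5 had TATAAA, 2 TGANTCA, 27 GGGCGG and 9 CCAAT. Counted by gene, 4, 2, 23 and 9 of the 31 had them at 1 or more of their starts. These matches are descriptions of the letters only.

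The last comparisons concerned the new-to-total ratio, the share of a gene's RNA estimated to be made during labelling, as a maximum a posteriori value per library. For most matrix genes tested, this ratio was lower than the median over all genes tested. Of the 45 genes, 35 had at least 100 counts in each of the 8 labelled libraries and were tested. Their median ratio, averaged over the libraries, was 21.3%, against 35.3% over all 5538 genes, and 30 of the 35 lay below that all-gene median. In each library the median of the matrix genes was below that of all tested genes, at 14.6% to 22.9% against 26.0% to 42.3%. Ratios were analysed only where 4sU was given, and no unlabelled background is set beside these values.

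The lowest ratios were those of Efemp1, Bgn, Fbln5, Col6a2 and Col6a1. Efemp1 had 6.26% and 7.63% in tubes at 200 µM, 5.02% and 4.10% at 800 µM, 5.22% and 4.31% in fixed cells at 200 µM and 2.78% and 4.18% at 800 µM. Its mean of 4.94% was above that of only 0.0722% of the genes tested. Bgn had a mean of 7.34%, with 8 libraries between 4.46% and 8.66%, and Fbln5 one of 8.5%. The type VI collagen chains Col6a2 and Col6a1 had means of 9.72% and 10.6%. The highest value of any of these 5 genes was 15.4%, for Col6a1.

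The highest ratios were those of Col5a1, Col8a1, Timp3, Tnc and Col4a2. Col5a1 had 52.9% and 51.3% in tubes at 200 µM, 48.9% and 42.8% at 800 µM, 57.2% and 59.0% in fixed cells at 200 µM and 60.7% and 47.1% at 800 µM. Its mean of 52.5% contrasted with 17.6% for Col5a2, the chain it assembles with, and every library of Col5a1 was above every library of Col5a2. Col8a1, a short-chain collagen, had a mean of 48.8%, Timp3, the inhibitor that binds to the matrix, 38.9%, Tnc 38.6% and Col4a2 36.0%. The chains of type I collagen were close to each other, at 21.8% for Col1a1 and 17.2% for Col1a2, and the TIMP genes were spread, at 27.9% for Timp1, 17.2% for Timp2 and 38.9% for Timp3.

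By role, the median ratio was lowest in the small leucine-rich proteoglycans, at 10.5% over 2 genes, and was 16.6% in the collagen folding enzymes, 17.9% in the fibrillar collagens, 19.6% in the adhesive glycoproteins and 19.9% in the elastic fibre proteins. It was 21.3% in the cross-linking oxidases, 22.7% in the other collagens, 25.7% in the basement membrane glycoproteins and 27.9% in the metalloproteinase inhibitors. Every role lay below the 35.3% of all genes tested, and single roles held only 2 to 6 genes. Across the 35 genes, Spearman's rho of the mean ratio was −0.16 with the share of U in the transcript, 0.38 with the length and −0.25 with the level per kilobase, as descriptions over genes that share the same libraries.

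**Figure D5:**
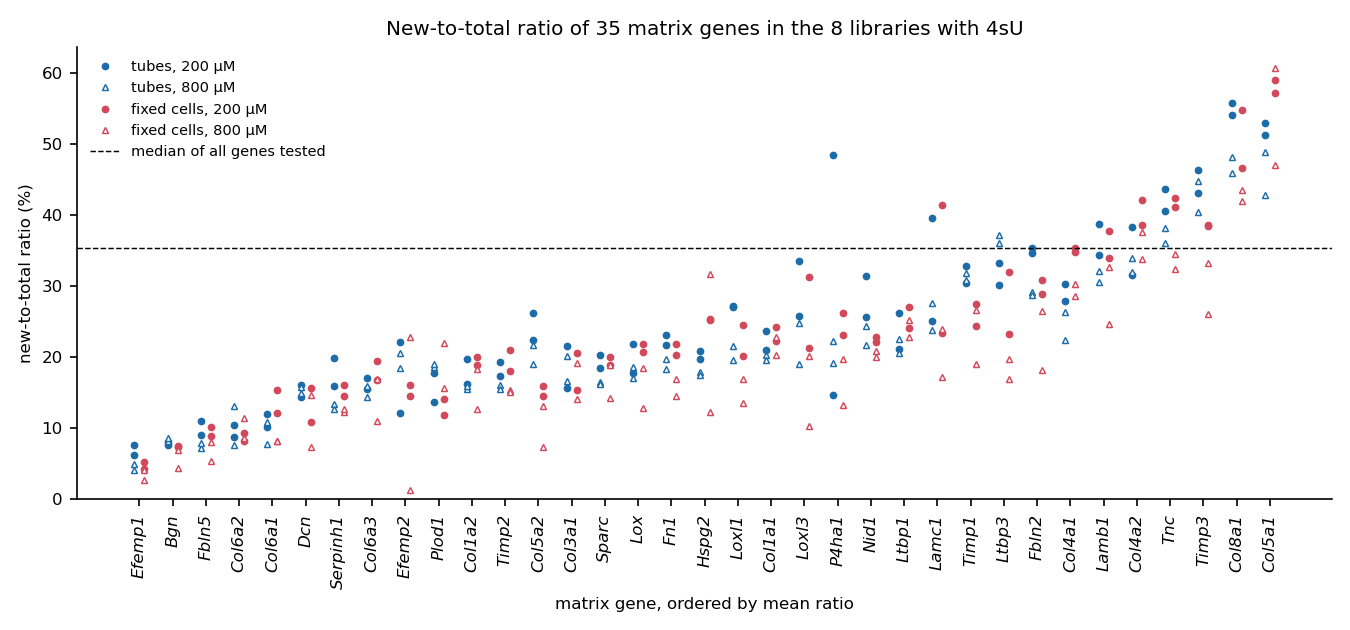
New-to-total ratio in percent of the 35 matrix genes tested, in each of the 8 libraries with 4sU (blue for tubes, red for fixed cells, filled circles for 200 µM, open triangles for 800 µM); the dashed line is the median of all 5538 genes tested. Means run from 4.94% for Efemp1 to 52.5% for Col5a1, and 30 of the 35 lie below the dashed line.

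The precision of a ratio differed between genes with many and with few counts, though not strictly by count. Timp1, with at least 2514 counts per labelled library, had a median interval width of 3.15 points, and Efemp1, with at least 1708, one of 2.03. The deposited interval from the 0.05 to the 0.95 quantile had a median width of 5.23 percentage points over the 35 genes. For Bgn, with at least 6109 counts per labelled library, the interval was 1.00 to 1.81 points wide. For P4ha1, with at least 170, it was 9.01 to 15.5 points, and the tube libraries at 200 µM gave 14.7% and 48.5%, far further apart than these intervals. Efemp2 similarly had 1.33% in fixed 800 µM library A and 22.8% in library B.

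No matrix gene passed the limma test of the ratio in any of 4 comparisons (BH-adjusted p under 0.05). Over all 5538 genes, 0% passed for fixed cells against tubes at 200 µM, 0% at 800 µM and 0% for 800 against 200 µM in tubes, and 0.0181% for 800 against 200 µM in fixed cells. In that order, 1, 4, 1 and 5 matrix genes (2.86%, 11.4%, 2.86% and 14.3%) had an unadjusted p under 0.05, against 19.1%, 20.3%, 8.45% and 16.6% of all genes. The median logit difference of the matrix genes between fixed cells and tubes was −0.06 at 200 µM and −0.15 at 800 µM, against −0.19 and −0.31 over all genes. For fixed cells against tubes the smallest p were those of Col5a2, with a logit difference of −0.57 (SE 0.22) at 200 µM and −0.84 (SE 0.22) at 800 µM, Nid1 (−0.31, SE 0.16) and Col4a1 (0.28, SE 0.15) at 200 µM, and Ltbp3 (−0.95, SE 0.18) and Timp3 (−0.57, SE 0.19) at 800 µM. Col5a2 had 22.4% and 26.2% in tubes and 16.0% and 14.6% in fixed cells at 200 µM, and 21.7% and 19.1% against 7.41% and 13.2% at 800 µM. The fixed libraries were below the tube libraries at both doses, and the difference did not pass after adjustment.

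For 800 against 200 µM, the matrix genes moved as the whole table did: the median logit differences were −0.20 in tubes and −0.32 in fixed cells, both over the matrix genes and over all genes. In tubes, 29 of 35 values (82.9%) were below 0, against 77.4% of all genes, and the smallest p were those of Serpinh1 (−0.37, SE 0.16), Loxl1 (−0.36, SE 0.16) and Nid1 (−0.28, SE 0.16). In fixed cells 33 of 35 (94.3%) were below 0, against 88.8% of all genes, and the smallest p were those of Loxl1 (−0.47, SE 0.16), Ltbp3 (−0.53, SE 0.18) and Col6a1 (−0.57, SE 0.21). The low library A takes part in the fixed value: without it the median of the matrix genes was −0.18 (−0.15 over all genes), with 0 past the threshold, and without library B it was −0.45 (−0.49 over all genes), with Col5a2, Fbln2 and Efemp2 passing as lower, as did 10.4% of all genes. For fixed cells against tubes at 800 µM, leaving out library B gave 1 higher and 7 lower matrix genes of 35, beside 0.632% and 16.3% of all genes, and leaving out library A gave 0.

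Splitting each total by the ratio gave the level of older RNA, the part not made during labelling. Relative to the total without 4sU, older RNA of the 35 genes had a median log2 value of −0.19 and −0.14 in tubes at 200 and 800 µM and of −0.26 and −0.24 in fixed cells. The corresponding medians over all tested genes with older RNA above 0 were −0.70, −0.59, −0.57 and −0.45. For Timp1, older RNA was 402 ± 55.3 CPM at 200 µM and 362 ± 4.62 CPM at 800 µM in tubes (SD, n = 2). The total without 4sU was 349 ± 0.27 CPM, and new RNA was 186 ± 11.6 and 165 ± 7.44 CPM. Older Timp1 RNA relative to the untreated total had log2 values of 0.21 and 0.05. Such values depend on the scaling, and the low-ratio scaling shifted the all-gene median by −0.17 and −0.15 in these comparisons. Whether older Timp1 RNA changed was not tested. For Tnc, older RNA was 240.0 ± 2.84 and 278 ± 6.91 CPM, below the untreated total of 312 ± 0.74 CPM, and new RNA was 175 ± 13.0 and 164 ± 15.2 CPM. Fn1 had 1497 ± 181 and 1573 ± 124 CPM of older RNA, beside an untreated total of 1647 ± 111 CPM.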

How the data were processed

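One deposited table with 12 SLAM-seq libraries was used. Cutadapt, STAR 2.7.10b and Bowtie2 2.3.0 appear in the submitters' processing notes, with no order. The build, gene models, counter and strand setting behind the table: not given in the sources used here. Expected counts, as deposited per gene and library (16.2% to 22% of values not whole), were rounded. The deposited new-to-total ratio is a fraction, given per the file headers as a maximum a posteriori value, a posterior mean and quantiles. The deposited alpha and beta scores served only to check columns. IDs were matched to GENCODE M21 (15185 of 15217); length is the deposited value.

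The rounded counts went into edgeR 4.0.16 under R 4.3.3 (quasi-likelihood, TMM, filterByExpr with minimum count 10 and total 15, 1 fit of 6 groups without a block, 6 residual degrees of freedom, BH threshold 0.05). Ratios were tested with limma 3.58.1 on the logit scale (values held within 0.001 and 0.999), at counts of at least 100, without a block. Each SE of an edgeR log2 value is its absolute value over the square root of its F statistic, with the spread estimated over all groups of the fit. Both scripts were tested on simulated data. Alternatives were DESeq2 1.42.0, RLE factors, no filter, scaling on the 1736 genes in the third with the lowest ratio, a replicate block, each library left out (the lone library of its group is then assumed to vary like the other groups), a length offset (lowess, span 0.3) added after seeing the data, and, for ratios, the posterior mean, no logit and count minimums of 30 and 300. Named genes were the matrix genes past the threshold, the 3 smallest p where none passed, the 5 highest and 5 lowest by level and by ratio, and up to 3 per further list. Other matrix genes given as not past the threshold, and Fn1 under older RNA, were chosen after their values were seen. The matrix genes and lists were chosen with earlier results of these data known. Counting error alone is smaller than the spread between libraries (chi-square per degree of freedom 3.17 to 21.9 within groups).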

Additional observations from a re-analysis of the deposited data

How the results depend on the processing

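Counts of matrix genes past the threshold moved as follows. For 4sU at 200 µM in tubes (3), 6 passed with DESeq2 (Col1a2 as lower), 7 without a filter on low counts (Col1a2 as lower) and 5 with the length offset, which was chosen after seeing the data, and 0 to 1 with a library left out; the low-ratio scaling gave 1 higher and 1 lower (Col1a2). For 800 µM in tubes (2), 1 passed with RLE factors, 0 with the low-ratio scaling, 1 with a replicate block and 1 with the length offset, and 0 with any library left out. In fixed cells at 200 µM (0), 2 passed with DESeq2 and 1 without a filter. At 800 µM (0), 1 passed with DESeq2, 1 with RLE factors, 1 without a filter, 1 with the low-ratio scaling (Col3a1, lower) and 1 with the length offset, and 0 to 3 with a library left out. For fixed cells against tubes (25), the count was 15 to 19 with a library left out, 24 with a replicate block and 32 with the low-ratio scaling. The interaction at 800 µM (0) gave 0 to 3 with a library left out. For the ratio, fixed cells against tubes at 800 µM (0) gave 2 with a count minimum of 300 (Col5a2 and Ltbp3) and 0 to 8 with a library left out, and 800 against 200 µM in fixed cells (0) gave 0 to 3.

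The log2 fold of Timp1 in fixed cells over tubes turned from 0.42 to −0.15 with the length offset; no other called log2 value changed sign. Without a filter on low counts, genes called over the whole table went from 422 to 862 and from 208 to 481 in tubes at 200 and 800 µM, from 94 to 245 and from 293 to 814 in fixed cells, and from 0 to 76 and 20 for the interactions. DESeq2 called 570 in fixed cells at 800 µM and 11 for the interaction at 200 µM. The low-ratio scaling called 334 in tubes at 800 µM and 208 and 756 in fixed cells; 24 of the 35 matrix genes with a tested ratio lie below the 25.7% that bounds its genes. With a library left out these counts were 18 to 206, 22 to 88, 2 to 9, 24 to 1200 and, between the procedures, 2151 to 2648, against 3485; the interactions gave 0 to 3 and 0 to 123. For the ratio, a count minimum of 300 called 52, 120 and 6 genes (fixed against tubes at 200 and 800 µM, and 800 against 200 µM in fixed cells), a minimum of 30 called 2 and 3 in the latter comparisons, and a library left out gave 0 to 16, 0 to 937 and 0 to 586; the posterior mean called 8 for fixed cells against tubes at 800 µM. Correlations of the deviations of libraries with the same letter were mixed (−0.21 to 0.26 over 15 pairs), and the labels do not say that a letter marks a shared culture or day. The replicate block ended 1 matrix call in each of the 3 comparisons that had any and added none: Loxl3 at 200 µM (adjusted p 0.0504) and Tnc at 800 µM (0.0667) in tubes, and Ltbp3 between the procedures (0.0594). Depth limits the 10 matrix genes without a tested ratio and the 6 with mean counts under 50.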
